A study of Homo sapiens with 11 samples.

Results

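Across 11 arrays of MDA-MB-231, an established triple-negative line from human breast cancer, 9 inflammatory cytokine genes were followed: IL6, IL11 and LIF of the interleukin 6 family, the colony-stimulating factors CSF2 and CSF3, IL1A and IL1B of the interleukin 1 family, IL24 and TNF. A gene counted as measured where at least 1 probe set was annotated to its symbol alone, and probe sets of 1 gene were averaged. Of the 9 genes, 8 were measured, on 11 probe sets, out of 19775 genes in all. CSF2 had no such probe set and was not analysed here. The genes were chosen from earlier results on these same arrays, in which IL6 differed widely between the control arrays and stood high in the array of cells given BSA. The differences between BSA and control, between E2-BSA and BSA and between the sets of arrays described below are therefore given as a description.

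Treatment lasted 3 h and followed 4 h in charcoal-stripped serum. E2-BSA is estradiol linked to bovine serum albumin (BSA). It was given at 1 µM on 2 arrays, and 1 array each was made for 1 µM E2-BSA with 10 µM ICI, 1 µM E2-BSA with 10 µM G15, 10 µM ICI alone, 10 µM G15 alone, 1 µM free estradiol, 1 µM BSA and 0.1% ethanol, the vehicle of estradiol. Untreated cells, the control, had 2 arrays. G15 antagonises the membrane estrogen receptor GPER, and the labels name ICI, an antagonist, by that abbreviation only. All groups are of the same cell line, and nothing in the labels says that the duplicates came from separate cultures, so each p-value measured only the spread between these arrays.

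Cytokines of the interleukin 6 family bind a receptor of their own and then the shared chain gp130, encoded by IL6ST, which activates JAK kinases and the transcription factor STAT3. Interleukin 1 and tumor necrosis factor signal through receptors that activate NF-kB, and NF-kB in turn drives transcription of IL6, CSF3, IL1B and TNF in many cell types. Cytokine transcripts of this kind are short-lived and can change within an hour or so of a stimulus. MDA-MB-231 cells are known to secrete interleukin 6 without added stimulus.

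The deposited values were log values centred on each probe set, with base 2 taken, so they give differences between arrays and no level of a gene. For that reason the labelled cell type could not be checked by the presence or absence of its markers. Poly-A transcripts of bacterial genes, spiked in before labelling, parted the arrays into a set of 3 (the first E2-BSA array, estradiol and the first control), where their 24 probe sets averaged 1.40 to 1.62, and a set of 8, where they averaged between -0.56 and 0.10. The labels name no batch. Values were therefore compared within each set, and the fit over all arrays carried a term for the set. In bulk RNA, a change in the number of cells making a transcript and a change in the amount per cell cannot be told apart.

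**Figure D1:**
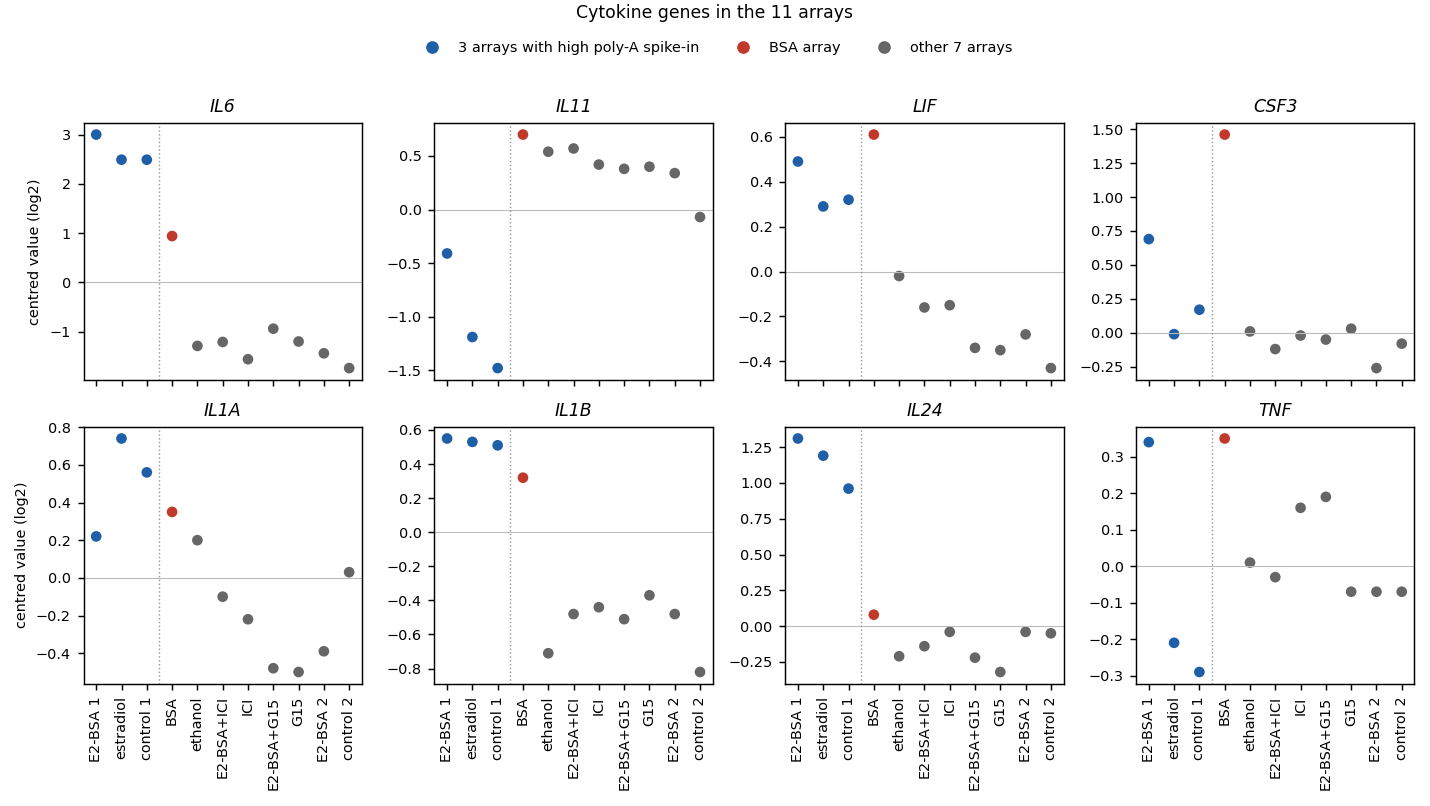
Centred log2 value of each measured cytokine gene in the 11 arrays, with 1 point per array and its own vertical scale for each gene. The 3 arrays with high poly-A spike-in stand left of the dotted line, and the BSA array is the highest of the 8 arrays right of it for each gene, from 0.11 above the next array for IL24 to 1.88 for IL6. Over all genes the BSA array is the highest of these 8 in 31.2%.

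In the BSA array all 8 measured cytokine genes, averaged over their probe sets, had their highest value of the 8 arrays of its set. The same held for 31.2% of all genes. IL6 stood furthest apart. Single probe sets of IL11 and IL1A were not highest with BSA, as given below. IL6 was at 0.94 with BSA. In the same set it was at -1.29 with ethanol, -1.21 with E2-BSA and ICI, -1.56 with ICI, -0.94 with E2-BSA and G15, -1.20 with G15, -1.44 in the second E2-BSA array and -1.74 in the second control. The BSA array thus lay 1.88 above the next array and 2.68 above the second control, a 6.43-fold difference, while the other 7 arrays stayed within a band from -1.74 to -0.94. The single probe set that read IL6 gives no second reading of this.

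The proximal promoter of IL6 is shown because IL6 had the largest difference of the members and its promoter window was the one, among the 8 entries held for 7 of the 9 listed genes, with a match to the NF-kB consensus of 10 letters (GGG, a purine, 2 of any base, 2 pyrimidines, CC, on either strand). LIF and CSF3 had no entry, so their promoters were not searched. The IL6 window is chr7:22726950-22727249 on the + strand, GRCh38.p14, from 250 bases before to 50 bases after the RefSeq start. The capitals mark that match, at bases -73 to -64 from the start.
IL6: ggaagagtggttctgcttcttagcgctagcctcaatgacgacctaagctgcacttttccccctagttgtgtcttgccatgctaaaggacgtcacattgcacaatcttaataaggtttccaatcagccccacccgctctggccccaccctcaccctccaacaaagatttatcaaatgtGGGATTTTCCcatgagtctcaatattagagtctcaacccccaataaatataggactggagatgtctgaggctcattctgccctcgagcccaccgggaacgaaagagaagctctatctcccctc
A match occurred in 11.3% of 35116 promoter windows of that length, and it is a description of the letters. The IL6 window also held the C/EBP letters TTNNGNAAT at bases -156 to -148, which 11% of windows held on either strand. Windows of IL1A, IL1B and IL24 held these letters too.

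LIF, which maintains stem cells and signals through gp130, was at 0.61 with BSA, against -0.43 in the second control and -0.43 to -0.02 over the other 7 arrays. CSF3, which encodes the granulocyte growth factor G-CSF, was at 1.46 with BSA, against -0.08 in the second control and -0.26 to 0.03 over the other 7. For both genes the BSA array was also above each of the 3 arrays of the high poly-A set. There LIF reached 0.49 and CSF3 0.69. The same held for IL11 and TNF, but not for IL1A, IL1B and IL24. Nor did it hold for IL6, which was at 2.49 to 3.00 in those arrays. These comparisons cross the sets and are given as a description.

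IL1B, the secreted interleukin 1 beta, was at 0.32 with BSA, against -0.82 in the second control and -0.82 to -0.37 over the other 7 arrays. Its 2 probe sets stood at 0.37 and 0.27 with BSA, against -0.88 and -0.77 in the second control. IL11, a gp130 ligand that acts on megakaryocytes and bone, was at 0.70 with BSA, against -0.07 in the second control, but only 0.13 above the next array. Its probe set 206924_at was at 0.69 with BSA, below 0.90 with ethanol, while 206926_s_at was highest with BSA, at 0.70. TNF was at 0.35 with BSA against -0.07 in the second control, and IL24, a cytokine of the interleukin 10 family, at 0.08 against -0.05. Both lay within 0.16 of the next array.

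IL1A, the cell-associated interleukin 1 alpha, had 2 probe sets that disagreed. Probe set 210118_s_at was at 0.45 with BSA, against -0.63 in the second control, and probe set 208200_at at 0.25 with BSA, against 0.69. Their mean differed by 0.32.

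Over the 8 genes the median difference of the BSA array from the second control was 0.90, beside a median of 0.19 over all genes, and 4 members (IL6, CSF3, IL1B and LIF) were higher by more than 1, as were 0.202% of all genes. The BSA array was the highest of the 8 in 31.2% of all genes. With each array centred on its median, 2 members instead of 4 passed a difference of 1, and BSA was highest for 7 of 8 members and for 18% of all genes.

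In the additive fit (11 arrays, a term for each agent and 1 for the set), BSA differed from control by 2.71 ± 0.14 (SE) for IL6, 1.65 ± 0.23 for CSF3 and 1.0 ± 0.13 for LIF. These 3 of the 8 members passed the limma test at a Benjamini-Hochberg adjusted p of 0.05 over 19775 genes, where 0.126% of all genes were called higher and 0.354% in either direction, 25 higher and 45 lower (15 and 57 with the arrays centred). As the members were chosen with this contrast in view, nothing is read from that share. The other 5 did not pass, beside a median of 0.17 over all genes, at 1.0 ± 0.19 for IL1B, 0.76 ± 0.29 for IL11, 0.51 ± 0.23 for TNF, 0.45 ± 0.20 for IL1A and 0.16 ± 0.19 for IL24. BSA had 1 array, which was assumed to vary like the others. Of the 3 residual degrees of freedom, the control and E2-BSA duplicates give 1, and the rest comes from taking the E2-BSA difference as the same with and without an antagonist. With a mean per group plus the set term, which leaves 1 residual degree of freedom, IL6 was called and LIF (adjusted p = 0.0665) and CSF3 (adjusted p = 0.0679) were not. The fit without the set term gave 0.54 for IL6 and called 0 members, the 8 arrays alone gave 2.68 for IL6 without a call, and leaving out the second control array or the second E2-BSA array left 1 of the 3 calls, that of IL6.

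**Figure D2:**
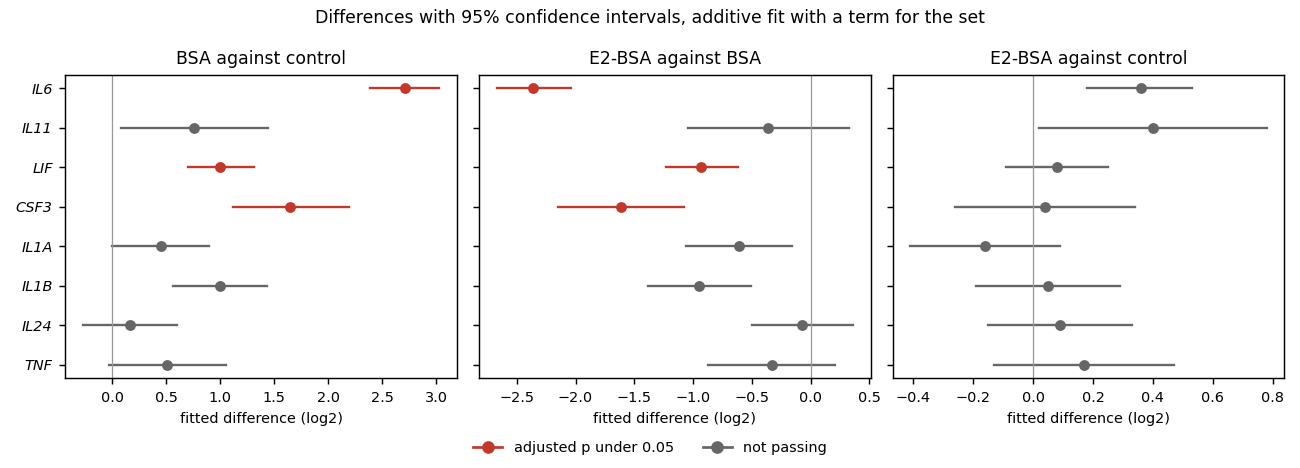
Fitted log2 differences of the 8 cytokine genes with 95% confidence intervals, from left to right for BSA against control, E2-BSA against BSA and E2-BSA against control (the horizontal scales differ). Red points passed an adjusted p of 0.05: IL6, LIF and CSF3, higher in the left panel and lower in the middle one, and no gene in the right panel.

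E2-BSA holds the same carrier protein, and the array of its set did not share the values of the BSA array. IL6 was at -1.44 in the second E2-BSA array, against 0.94 with BSA. CSF3 was at -0.26 against 1.46, LIF at -0.28 against 0.61 and IL1B at -0.48 against 0.32. The second E2-BSA array was below the BSA array in all 8 members, with differences from -2.38 for IL6 to -0.11 for IL24. Over all genes 21.1% were higher in the second E2-BSA array and the median was -0.17, so IL24 lay nearer 0 than the median gene. Of the members 2 (IL6 and CSF3) were lower by more than 1, as were 0.182% of all genes.

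In the additive fit E2-BSA against BSA was -2.36 ± 0.14 (SE) for IL6, -1.61 ± 0.23 for CSF3 and -0.93 ± 0.13 for LIF, the 3 members called lower among 0.101% of all genes. Calls in either direction took 0.308% of all genes, 41 higher and 20 lower (49 and 9 with the arrays centred). The other 5 members did not pass and ran from -0.95 ± 0.19 for IL1B to -0.07 ± 0.19 for IL24, beside a median of -0.19 over all genes. No member was called without the set term, without the second control array or without the second E2-BSA array. LIF kept its call in only 1 of 11 alternatives, quantile normalization, though its difference stayed between -0.98 and -0.54. Among those without a call were the fits that left out the first control array or the first E2-BSA array.

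The effect of E2-BSA itself could be set out in 4 pairs of arrays that differ by E2-BSA: the first and the second E2-BSA array against the control of the same set, E2-BSA with ICI against ICI, and E2-BSA with G15 against G15. IL6 was higher in all 4, by 0.51, 0.30, 0.35 and 0.26, in that order. It was the 1 member of 8 with that pattern, which 5.14% of all genes had. IL11 differed by 1.07, 0.41, 0.15 and -0.02. The first of these was the 1 member difference above 1 in that pair, where 0.131% of all genes passed 1. It came mainly from probe set 206924_at, at -0.77 in the first E2-BSA array against -2.48 in the first control, while 206926_s_at was at -0.04 against -0.47.

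The remaining members had no common direction over the pairs. IL1A differed by -0.35 and -0.43 in the pairs without an antagonist and by 0.12 and 0.01 in those with one. In the ICI and the G15 pair its probe sets had opposite signs, at 0.54 and -0.16 for 208200_at and -0.30 and 0.19 for 210118_s_at. TNF differed by 0.63, -0.01, -0.19 and 0.26, and CSF3 by 0.52, -0.17, -0.10 and -0.08. LIF, IL1B and IL24 ranged from -0.14 to 0.35.

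**Figure D3:**
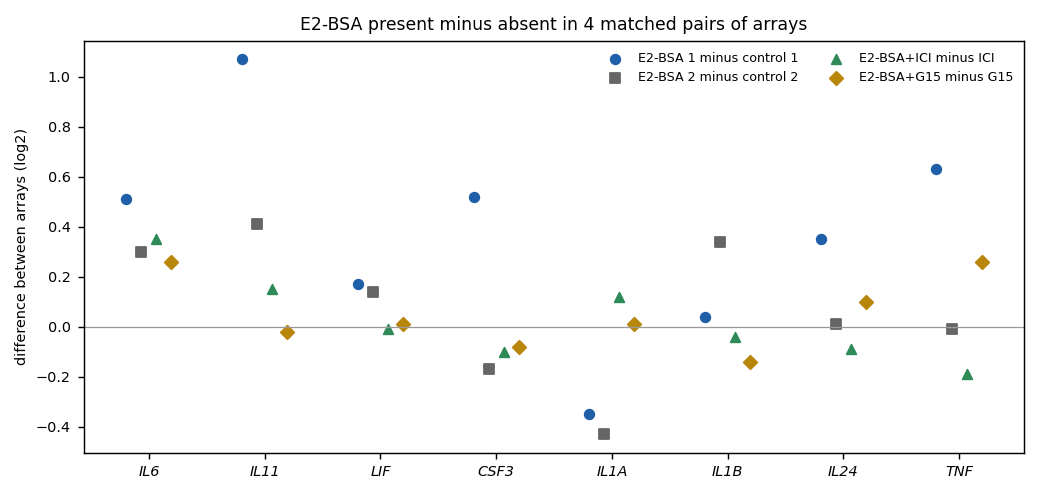
Difference on the log2 scale between the array with E2-BSA and its matched array without it, with 1 marker shape for each of the 4 pairs. IL6 is above 0 in all 4, at 0.26 to 0.51, and the first pair of arrays gives the largest value for IL11, at 1.07.

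In the fit, where E2-BSA against control is E2-BSA present against absent over these pairs, IL6 was at 0.36 ± 0.08 (SE) with an adjusted p of 0.903 and IL11 at 0.40 ± 0.16 with the same adjusted p. The 95% confidence interval was 0.18 to 0.53 for IL6 and 0.02 to 0.78 for IL11. The other 6 members lay between -0.16 ± 0.11 for IL1A and 0.17 ± 0.13 for TNF. No member and 0 of 19775 genes (0%) passed the limma test, while 2 members and 927 genes had an unadjusted p under 0.05.

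Free estradiol was measured in the high poly-A set. IL6 was at 2.49 with estradiol and at 2.49 in the first control. IL24 was at 1.19 against 0.96, IL11 at -1.19 against -1.48 and IL1A at 0.74 against 0.56. The probe sets of IL1A disagreed here, with differences of 0.59 for 208200_at and -0.24 for 210118_s_at. The 8 differences ranged from -0.17 for CSF3 to 0.28 for IL11. The fitted difference of IL6 was -0.08 ± 0.14 (SE), with an interval of -0.39 to 0.24. For IL11 it was -0.05 ± 0.29, of the other sign than the difference between the arrays, and for CSF3 -0.42 ± 0.23, the lowest of the members. In this fit 0 members and 0% of all genes passed (adjusted p of 0.818 or more for the members, and 1397 genes with an unadjusted p under 0.05).

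Estradiol and E2-BSA, which differ at least by the coupling to albumin, were both given at 1 µM for 3 h. This comparison was added after the data were seen. IL6 was at 2.49 with estradiol, against 3.00 in the first E2-BSA array. CSF3 was at -0.01 against 0.69, IL11 at -1.19 against -0.41 and TNF at -0.21 against 0.34, while IL1A was at 0.74 against 0.22. The fitted difference was -0.43 ± 0.14 (SE) for IL6 (interval -0.75 to -0.11, adjusted p = 0.498), -0.46 ± 0.23 for CSF3 (interval -0.99 to 0.08) and 0.43 ± 0.20 for IL1A (interval -0.02 to 0.88). Of the 8 members, 0 passed, as did 0% of all genes, with 1539 genes at an unadjusted p under 0.05.

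Ethanol, the vehicle of estradiol, had its array in the other set, so it could not be set directly beside estradiol. The fit carried no ethanol term for the estradiol array, so any vehicle part of the estradiol differences was not separated. IL6 was at -1.29 with ethanol, against -1.74 in the second control, IL11 at 0.54 against -0.07 and LIF at -0.02 against -0.43. Each of the 3 was above the second control, the lowest of the 8 arrays for all of them. In the fit IL6 was at 0.48 ± 0.14 (SE), LIF at 0.37 ± 0.13 and IL11 at 0.60 ± 0.29, and 0 of 8 members passed (adjusted p of 0.554 or more), where 0.086% of all genes were called.

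The antagonists were each present on 2 arrays, alone and with E2-BSA. IL6 was at -1.21 and -1.56 with ICI (with and without E2-BSA) and at -0.94 and -1.20 with G15, against -1.44 in the second E2-BSA array and -1.74 in the second control. All 4 antagonist arrays lay above the array of their set that matched them without the antagonist, as did most genes: 75.2% with E2-BSA and ICI, 80.2% with ICI, 61.5% with E2-BSA and G15 and 79.8% with G15. The IL6 differences were 0.23, 0.19, 0.50 and 0.55 in that order, beside medians over all genes of 0.12, 0.16, 0.05 and 0.16. Averaged over its 2 probe sets, IL1A was lowest in the G15 arrays, at -0.48 with E2-BSA and -0.50 alone. It was at -0.39 in the second E2-BSA array and 0.03 in the second control. Neither probe set alone had both G15 arrays lowest. Probe set 210118_s_at was at -0.81 with E2-BSA and G15, against -0.93 in the second E2-BSA array. Probe set 208200_at was at 0.01 with G15 alone, against -0.01 with ICI alone. G15 present against absent was fitted at 0.52 ± 0.11 (SE) for IL6 (adjusted p = 0.482) and -0.31 ± 0.15 for IL1A (adjusted p = 0.497), and ICI present against absent at 0.21 ± 0.11 for IL6 (adjusted p = 0.351). No member and 0% of all genes passed in either, with 2042 genes at an unadjusted p under 0.05 for G15 and 3219 for ICI.

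Several members differed between arrays of the same group that lay in different sets. IL6 was at 3.00 in the first E2-BSA array against -1.44 in the second, and at 2.49 in the first control against -1.74 in the second, an 18.8-fold difference between arrays of untreated cells. IL24 was at 1.31 against -0.04 in the E2-BSA arrays and at 0.96 against -0.05 in the controls. IL1B was at 0.55 against -0.48 and at 0.51 against -0.82.

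For these 3 genes all 3 arrays of the high poly-A set lay above all other 8, with a gap of 1.55 for IL6, 0.89 for IL24 and 0.19 for IL1B. They were 3 of 8 members, and 13.5% of all genes had that pattern. IL11 ran the other way: it was at -0.41, -1.19 and -1.48 in the high poly-A set and at -0.07 to 0.70 in the other 8, so that these 2 groups of arrays did not overlap either. That was 1 of 8 members, beside 16.3% of all genes.

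Between the controls 3 members (IL6, IL1B and IL24) were higher by more than 1 in the first array, as were 3.45% of all genes, and 1 (IL11) was lower by more than 1, as were 1.84%. Between the E2-BSA arrays the same 3 were higher by more than 1, beside 2.98% of all genes. The probe sets of 1 gene did not always move alike. For IL1A the first control minus the second was 1.87 for 210118_s_at and -0.81 for 208200_at, and for IL11 it was -2.31 for 206924_at and -0.51 for 206926_s_at. No label records what the sets share beyond the spike-in values, and their part in these differences was not tested.

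**Figure D4:**
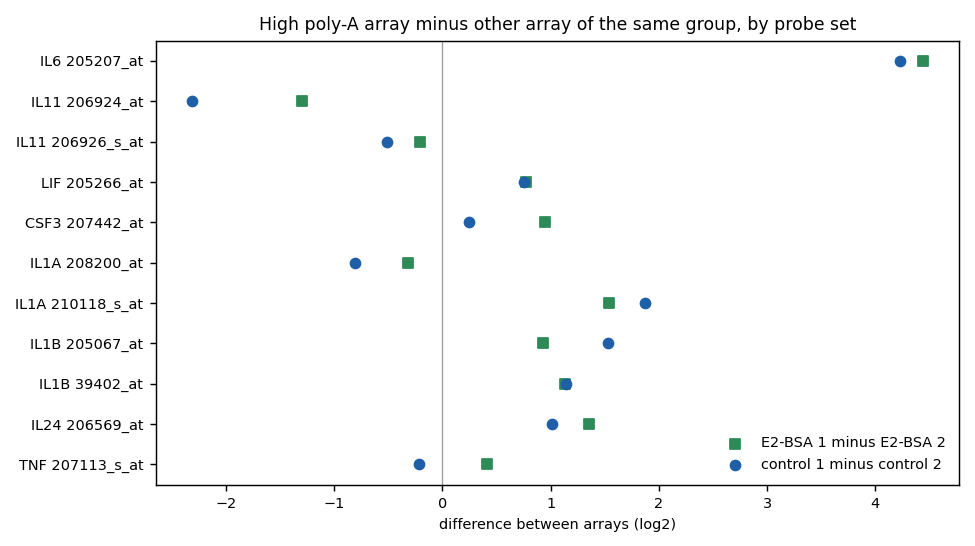
Difference on the log2 scale between the array of the high poly-A set and the array of the same group in the other set, by probe set, with squares for the E2-BSA arrays and circles for the controls. IL6 stands at 4.44 and 4.23, the probe sets of IL11 are both below 0, and the probe sets of IL1A lie on opposite sides of 0.

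The AP-1 letters TGANTCA, which 7.71% of promoter windows held, were found in the windows of IL1A and IL11. The window of IL11, the member that was lower in the high poly-A set, is shown beside that of IL6 for comparison and was chosen after the values were seen. It is chr19:55370414-55370713 on the - strand, GRCh38.p14, and the capitals mark the AP-1 match, at bases -96 to -90, which reads as TGANTCA on both strands.
IL11: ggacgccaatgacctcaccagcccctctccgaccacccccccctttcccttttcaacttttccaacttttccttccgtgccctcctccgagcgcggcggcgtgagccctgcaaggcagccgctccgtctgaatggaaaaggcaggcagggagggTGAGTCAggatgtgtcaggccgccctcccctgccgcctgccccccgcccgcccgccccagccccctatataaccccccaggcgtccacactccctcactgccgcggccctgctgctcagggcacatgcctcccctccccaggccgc
No NF-kB match lay in this window. The letters TATAAA, held by 11.5% of windows, were found for TNF, at bases -29 to -24, and for IL1A.

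Other genes of these pathways were read in the BSA array from lists drawn up by function, with earlier results of these data known. Of the receptors of the members, 0 of 16 were called higher in BSA against control. Their median difference from the second control was 0.14, against 0.19 over all genes. The largest was TNFRSF1B, a tumor necrosis factor receptor, at 0.50 with BSA against -0.25 in the second control. Of the other gp130 ligands 0 of 5 were called. IL27 was at 0.50 against -0.11 and OSM, oncostatin M, at 0.34 against -0.03.

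Of 11 measured JAK-STAT feedback genes and STAT3 targets, 2 were called higher, beside 0.126% of all genes. The differences of the 11 between the BSA array and the second control ranged from -0.08 to 2.18, with a median of 0.26 against 0.19 over all genes. With ethanol the median difference of the list was larger, at 0.45 against 0.05 over all genes. Higher by more than 1 were 3 of the 11 with ethanol (0.258% of all genes) and 2 with BSA (0.202%). In the fit of ethanol against control 1 was called higher, beside 0.086% of all genes. The transcription factor gene IRF1 was at 0.79 with BSA against -1.38 in the second control (fitted 2.04 ± 0.29 (SE), adjusted p = 0.0373). JUNB, an AP-1 subunit, was at 1.11 against -0.29 (1.40 ± 0.19, adjusted p = 0.0305), and it was at 1.47 with ethanol. CEBPD was fitted at 0.69 ± 0.13 and did not pass.

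Of the other ligands of the interleukin 1 family 0 of 9 were called, of the other cytokines 0 of 16, of the regulators of cytokine mRNA decay 0 of 7, and of the proteases that process cytokines 0 of 4. Among the other cytokines the lymphotoxin gene LTB was at 1.06 with BSA against -0.22 in the second control (1.24 ± 0.28, adjusted p = 0.188). ZFP36, whose product speeds the decay of cytokine mRNA, was at 0.10 against -0.48 (0.65 ± 0.17, adjusted p = 0.226). NF-kB subunits and inhibitors were called higher in 5 of 10, beside the 0.126% of all genes. As for the members, nothing is read from that share. Among the 5 were the inhibitor gene TNFAIP3 at 1.96 against -0.90 and the subunit gene RELB at 1.25 against -0.83. In ethanol against control 1 of these 10 was called higher, and with ethanol TNFAIP3 was at 1.32, NFKBIZ, another gene of the list, at 1.13 and RELB at -0.02.

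**Figure D5:**
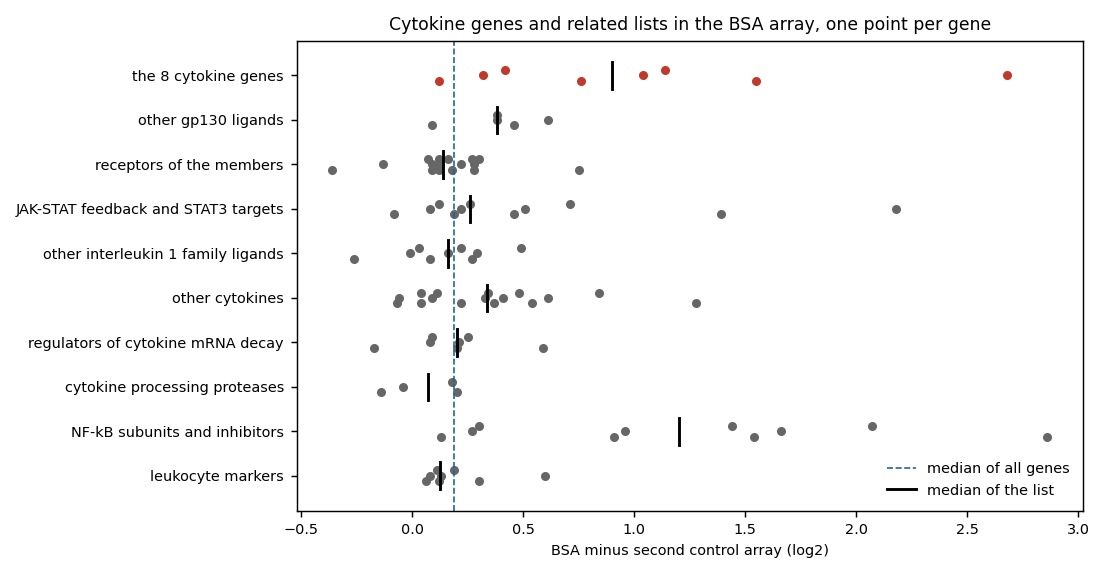
Difference on the log2 scale between the BSA array and the second control for the 8 cytokine genes and for 9 lists of related genes, with 1 point per gene, a black bar at each list's median and a dashed line at the median of all genes, 0.19. The cytokine genes have a median of 0.90 and the NF-kB subunits and inhibitors one of 1.20, and the other lists lie between 0.07 and 0.38.

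Markers of leukocytes, a possible source of cytokine RNA in a culture, were set beside the members. Of 8 measured markers 0 were called in BSA against control. Their mean was 0.03 in the BSA array and -0.17 in the second control, and over all 11 arrays it ranged from -0.17 to 0.32, with the highest in the first control. All 8 were above the second control in the BSA array, as were 82% of all genes, with a median difference of 0.13 beside 0.19 over all genes. LYZ, which encodes lysozyme, differed most, at 0.24 with BSA against -0.36 (fitted 0.56 ± 0.13 (SE), adjusted p = 0.212), CD14 was at 0.02 against -0.28, and PTPRC, the gene of the pan-leukocyte antigen CD45, at -0.01 against -0.14. Between the controls all 8 were higher in the first array, as were 60.1% of all genes, and CD14 was at 0.98 there against -0.28 in the second. Centred values do not show whether a marker is present at all, and the markers' part in the members' values was not tested.

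Some of the same related genes differed between the sets. IL1RAP, the accessory chain of the interleukin 1 receptor, was at 1.50 in the first control against -0.48 in the second, and CSF1 at 1.01 against -0.52. IL18, another interleukin 1 family ligand, was at -1.79 against 0.29. In the receptor list 4 of 16 genes were higher by more than 1 in the first control, in the list of other cytokines 5 of 16, in that of NF-kB subunits and inhibitors 3 of 10, in that of JAK-STAT feedback genes and STAT3 targets 1 of 11 and among the leukocyte markers 1 of 8, beside 3.45% of all genes. The count was 0 of 5 for the other gp130 ligands, 0 of 9 for the other interleukin 1 family ligands, 0 of 7 for the decay regulators and 0 of 4 for the proteases.

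The genes whose values ran most like IL6 over the 8 arrays, among 737 genes with a range of at least 1 there, were ICAM1 (Pearson r 0.976), MIR146A (0.975) and COXFA4L3 (0.960). These points share the BSA array, in which IL6 is far above the rest. The rank correlation was 0.595 for ICAM1, 0.619 for MIR146A and 0.524 for COXFA4L3, and Pearson's r over the 7 arrays without BSA was 0.662, 0.749 and 0.317. The 5 most like genes of each of the 8 members came to 33 different genes, of which 6 were named for more than 1 member and ICAM1 for 3 (IL6, CSF3 and TNF).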

How the data were processed

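RNA of 11 arrays of the Affymetrix HG-U133 Plus 2.0 type, with 54675 probe sets, was analysed from the table of values the authors deposited. The deposited values are on a log scale taken as log2, centred per probe set: they ranged from -4.20 to 6.69, and in 51.7% of probe sets the values nearest 0 mirrored each other within 1e-05. How the authors summarised and normalised the arrays, and the log base, are not given in the sources used here.

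Groups came from the labels. The platform annotation gave each probe set its gene: 41097 had 1 symbol, 1801 several and 11777 none, and probe sets of 1 gene were averaged. No values were filtered out and arrays were not normalised further. limma 3.58.1 in R 4.3.3 was fitted to all 19775 genes and 11 arrays at once, with terms for E2-BSA, ICI, G15, BSA, ethanol, estradiol and the set of arrays, a trend in the prior variance, 3 residual degrees of freedom and Benjamini-Hochberg adjustment. It was also run on data simulated from the same additive model with independent noise. Such data cannot test the single BSA array, the additivity or the set term. Single-array differences carried no test and counted as higher or lower past 1. Members, lists, sets and tests were chosen with earlier results of these data known. The text names all members, up to 4 genes per list by their difference in BSA minus the second control, and the 3 genes most like IL6. Promoters are RefSeq's, GRCh38.p14. Alternatives were other normalizations, probe set rules and fits, and arrays left out in turn. The number of arrays limits the precision.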

Additional observations from a re-analysis of the deposited data

How the results depend on the processing

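Of 3 members called in BSA against control, 0 were called without the set term, 1 with a mean per group plus the set term, 1 with the most variable probe set of each gene, and 1 to 3 when 1 duplicate array (control or E2-BSA) was left out. Of 3 in E2-BSA against BSA, 0 were called without the set term, 1 in only the 8 arrays, 1 with group means, 1 with arrays centred, 1 with the most variable probe set, and 0 to 2 with 1 array left out. IL6 in BSA against control kept its direction in 11 alternatives (0.54 to 3.21) and its call in 8. It missed the threshold in the 8 arrays alone (2.68) and after quantile normalization (3.21). Differences past 1 numbered 1 instead of 0 for ethanol against the second control and for estradiol against the first E2-BSA array with each probe set on its own, and for E2-BSA with G15 against the second control and against the second E2-BSA array after quantile normalization. They numbered 0 instead of 1 for the first E2-BSA array against the first control after quantile normalization, 2 instead of 4 for BSA against the second control with arrays centred, and 5 instead of 3 between the E2-BSA arrays with each probe set on its own. Signs turned for genes that were not called: IL24 in BSA against control without the set term (-0.43), IL24 in E2-BSA against BSA (0.52 without the set term, 0.09 with arrays centred, 0.07 after quantile normalization), CSF3 in E2-BSA against control (-0.12 in the 8 arrays, -0.01 after quantile normalization, -0.12 to 0.11 with 1 array left out) and IL1B there (-0.05 to 0.05 with 1 array left out). Genes called in BSA against control numbered 70, but 5 without the set term, 163 with the most variable probe set, and 4 and 5 without the second control or the second E2-BSA array. In E2-BSA against BSA they numbered 61, but 0, 137, 0 and 0, and in ethanol against control 17, but 0, 4, 0 and 0 in the same order, 36 after quantile normalization, and 11 with group means or without the first control array. In ICI present against absent, 3 genes were called with group means, where 0 were in the fit used. Centring the arrays moved the median of all genes in BSA against control to 0.02, where it was 0.17 as deposited. With the replicate number as a block over the control and E2-BSA arrays, 0 genes and 0 members were called in E2-BSA against control. That number coincides with the set in those groups, and deviations from the group means correlated at 0.814 between same-numbered arrays, 1 value, since with 2 arrays a group the second pair mirrors the first. The causes of these shifts were not tested.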
